A study of Rattus norvegicus with 48 samples.

Results

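Col1a1, Col1a2, Col3a1, Fn1 and Sparc are 5 extracellular matrix genes associated with scar tissue, described here in rat motor cortex around implanted silicon electrodes. They were chosen by their rat Ensembl identifiers, with no measured value in the rule, and are 5 of 18997 distinct genes in the count tables. Earlier results of these data were known when they were chosen. All 5 are listed in both tables and passed the low-count filter of every comparison. Type I collagen fibres are built from the chains encoded by Col1a1 (ENSRNOG00000003897) and Col1a2 (ENSRNOG00000011292), and type III collagen, which often shares those fibres, from the chain encoded by Col3a1 (ENSRNOG00000003357). Fn1 (ENSRNOG00000014288) encodes fibronectin, a glycoprotein that links cells through integrins to collagen and fibrin, and which is also a plasma protein. Sparc (ENSRNOG00000012840) encodes a secreted protein that binds collagen and takes part in matrix assembly. Healthy brain parenchyma holds little fibrillar collagen outside its vessels and meninges. After a penetrating injury, fibroblasts and perivascular cells are known sources of collagen and fibronectin, while Sparc is also made by glia and endothelium.

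The rats were wild-type Sprague-Dawley animals. Those implanted were males aged 12 to 14 weeks, which received a single-shank silicon probe in the motor cortex. Whether this age and sex also held for the naive rats, which had no implant, was not stated. Tissue was cut by laser from fixed sections, either within 100 µm of the shank (near) or about 500 µm away (far), the latter pooled from several smaller pieces around the site. Groups were 24 h after implantation (3 rats), 1 week (5 rats) and 6 weeks (4 rats), each with 6 near and 6 far libraries, and naive rats without an implant (3 rats), with 6 libraries at each of the matching distances labelled 100 µm and 500 µm. The rat was the replicate: 6 of the 12 implanted rats had 2 implants, and counts of a rat's libraries were summed per distance. The labels call the material brain tissue. Its marker genes were not analysed here, since the files do not pair identifiers with names.

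Levels are CPM, counts scaled to the same total in every library or rat sum. Library totals ran from 3363892 to 12844185 counts, so that 3 counts, the upper limit allowed by a count of 0, corresponded to 0.234 to 0.892 CPM. This limit covers counting error only. Between 3062 and 16023 genes had at least 1 count per library, and 4 libraries had fewer than 6000: near tissue of rat 29 at 24 h (right hemisphere), near tissue of rat 20 at 1 week (its only near library), and far tissue from the left and near tissue from the right hemisphere of rat 23 at 1 week. Calls of members that change without these libraries are given with both values. CPM takes no account of transcript length, so levels were compared between samples for each gene and never between genes. In cut tissue, a change in the number of cells of a type and a change of RNA per cell cannot be told apart.

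Among the members, RefSeq promoter sequences (build GRCr8) were available here for Col1a2 and Sparc alone, and both are shown. Each sequence is the 250 bases before the annotated start, 5′ to 3′ on the gene's strand. The Col1a2 window is chr4:33518307-33518556 on the plus strand and the Sparc window chr10:40038817-40039066 on the minus strand. Capitals mark matches on either strand to 4 short motifs. TATAAA is the core of the TATA box. CCAAT is the motif of NF-Y binding. GGGCGG is the core of Sp1 sites. CAGAC is part of the element bound by Smad proteins, which relay TGF-beta signals.
Col1a2: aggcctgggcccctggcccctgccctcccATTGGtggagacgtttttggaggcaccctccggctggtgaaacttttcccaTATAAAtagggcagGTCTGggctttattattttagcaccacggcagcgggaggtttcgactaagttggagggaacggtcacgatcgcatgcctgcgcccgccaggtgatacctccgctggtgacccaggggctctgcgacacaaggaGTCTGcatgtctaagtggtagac
Sparc: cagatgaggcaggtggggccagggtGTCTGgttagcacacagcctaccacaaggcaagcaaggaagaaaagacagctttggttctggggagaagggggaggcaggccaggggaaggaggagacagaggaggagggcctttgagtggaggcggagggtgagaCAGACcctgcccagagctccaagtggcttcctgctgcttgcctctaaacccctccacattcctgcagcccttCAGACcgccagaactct

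The Col1a2 window held CCAAT on the minus strand, beginning 221 bases before the start, and TATAAA on the plus strand, beginning 170 bases before it. CAGAC lay on its minus strand at 156 and 23 bases before the start. The Sparc window held CAGAC at 225 bases before the start on the minus strand and at 89 and 17 bases on the plus strand. TATAAA occurred in 12.93% of 33469 promoter windows of this length, CCAAT in 34.02%, GGGCGG in 30.47% and CAGAC in 42.93%. These matches describe the letters of the window and are not measured binding sites.

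The members differed in how often they were detected at all. Sparc had counts in all 48 libraries and Fn1 in 46. Col3a1 was detected in 32 libraries, Col1a1 in 30 and Col1a2 in 16. Both chains of type I collagen were detected together in 11 libraries, while 5 libraries had Col1a2 counts and none of Col1a1. Col1a1 and Col3a1 were found in fewest libraries in naive cortex: Col1a1 was found in 2 of 6 libraries at 100 µm and 1 of 6 at 500 µm, and Col3a1 in the same numbers. At 6 weeks near the shank, Col3a1 was detected in 6 of 6 libraries and Col1a1 in 5 of 6. Col1a2 was detected in 3 or fewer of 6 libraries in every group, naive groups included.

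**Figure D1:**
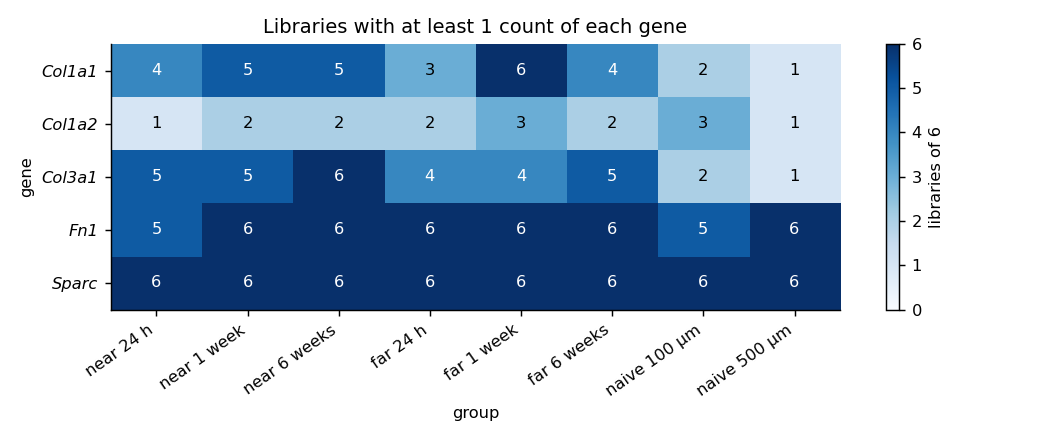
Number of libraries, of 6 in each group (columns), with at least 1 count of each gene (rows); darker cells hold more libraries. Sparc was found in every library, and the collagens were found in 1 to 3 of 6 naive libraries.

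Fn1, the fibronectin gene, was the one member called for near against far tissue when the 3 times were averaged with equal weight. Its log2 fold change was 1.26 ± 0.33 (approximate SE, 12 rats, edgeR quasi-likelihood test, adjusted p = 0.01383). Near the shank Fn1 was higher than far in 11 of 12 rats. This pattern of at least 11 of 12 rats was met by 0.569% of the 14399 genes tested. In the same comparison 1.51% of genes passed the test, 0.382% as higher near the shank, and the median gene had a log2 fold change of -0.39. Of the 217 called genes 55 were higher near the shank. With DESeq2 size factors in place of TMM scaling the split was 91 of 154 and the median -0.24, and Fn1 (1.42, adjusted p = 0.001269) and Sparc (0.94, adjusted p = 0.02094) were called. The call of Fn1 was lost with no replicate block (adjusted p = 0.2474), with no low-count filter (0.12) and with the naive difference between distances subtracted (0.9964). The other 4 members also had positive fold changes: 2.80 ± 1.71 for Col3a1 (adjusted p = 0.8561), 2.32 ± 1.01 for Col1a1 (adjusted p = 0.4615), 1.70 ± 2.21 for Col1a2 (adjusted p = 1) and 0.76 ± 0.26 for Sparc (adjusted p = 0.1599). The median of the 5 members was 1.70.

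**Figure D2:**
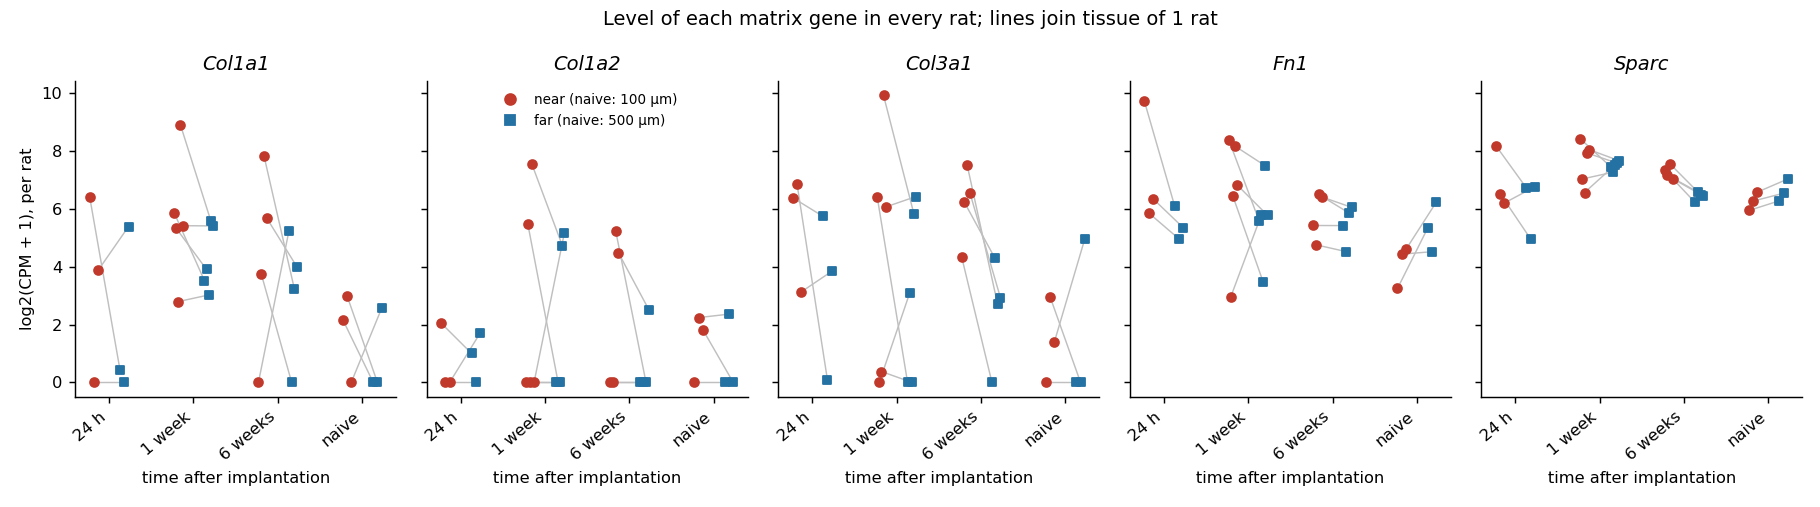
Level of each gene as log2(CPM + 1) on the vertical axis, by time after implantation and in naive rats on the horizontal axis; each red circle is near tissue (100 µm in naive rats) and each blue square far tissue (500 µm in naive rats) of 1 rat, and a line joins the 2 values of a rat. Fn1 lines slope down from near to far in 11 of 12 implanted rats and up in the 3 naive rats, and the highest Col1a1, Col1a2 and Col3a1 points are all near tissue of rat 22 at 1 week.

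Among the fibrillar collagens, Col1a1 near the shank at 24 h measured 84.2 CPM in rat 25, 13.7 in rat 30 and 0 in rat 29. Far tissue of these rats measured 0.333, 41.03 and 0 CPM. The groups overlapped, and the difference changed direction from rat 25 to rat 30.

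At 1 week Col1a1 near the shank measured 482 CPM in rat 22, 57.7 in rat 9, 41.9 in rat 23, 39.3 in rat 10 and 5.95 in rat 20. Far tissue measured 47.3, 10.5, 41.6, 14.0 and 7.14 CPM in the same order. Near tissue was higher in 4 of 5 rats, by little in rat 23, and rat 22 stood far above the rest. The near mean of 125 ± 200 CPM (SD, n = 5) became 36.2 ± 21.7 (n = 4) without rat 22.

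At 6 weeks Col1a1 near the shank measured 226 CPM in rat 17, 50.1 in rat 19, 12.5 in rat 11 and 0 in rat 2, against 8.33, 14.8, 0 and 36.4 CPM far from it. Levels were higher near the shank in 3 of 4 rats, and rat 2 showed the opposite. The means were 72.0 ± 105 near and 14.9 ± 15.6 far (SD, n = 4). In naive rats n2, n3 and n5 the gene measured 3.49, 6.97 and 0 CPM at 100 µm and 0, 0 and 4.91 CPM at 500 µm. All 5 far values at 1 week lay above all naive values at 500 µm, a separation that 2.42% of genes showed.

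Ordered by mean, Col1a1 went from near 1 week (125 CPM) to near 6 weeks (72.0), near 24 h (32.6), far 1 week (24.1), far 6 weeks (14.9), far 24 h (13.8), naive 100 µm (3.49) and naive 500 µm (1.64). The values of neighbouring groups overlapped at each step of this order.

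Col1a2, the partner chain, was the sparsest member. Near the shank at 24 h it was found in rat 25 alone, at 3.13 CPM, and far tissue measured 0.998 CPM in rat 25, 2.25 in rat 30 and 0 in rat 29. At 1 week near tissue measured 186 CPM in rat 22, 44.0 in rat 10 and 0 in rats 9, 20 and 23. Far tissue measured 25.6 CPM in rat 22, 35.4 in rat 23 and 0 in rats 9, 10 and 20. Rats with and without counts occurred on both sides, and 1 rat of 5, rat 22, had them on both.

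At 6 weeks Col1a2 near the shank measured 37.0 CPM in rat 17, 21.4 in rat 19 and 0 in rats 2 and 11, and the far value was above 0 in rat 19 alone, at 4.72 CPM. Naive tissue measured 0, 3.73 and 2.54 CPM at 100 µm in rats n2, n3 and n5 and 0, 4.14 and 0 CPM at 500 µm. Of the 12 implanted rats, 5 had the higher level near the shank, 2 far from it, and the other 5 were at 0 in both. By mean the order was near 1 week (46.0 ± 80.5 CPM), near 6 weeks (14.6 ± 18.0), far 1 week (12.2 ± 17.0), naive 100 µm (2.09 ± 1.91), naive 500 µm (1.38 ± 2.39), far 6 weeks (1.18 ± 2.36), far 24 h (1.08 ± 1.13) and near 24 h (1.04 ± 1.81). Every group included a rat at 0, so all groups overlapped. Without rat 22 the near mean at 1 week was 11.0 ± 21.99 CPM (n = 4).

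Col3a1, the type III collagen gene, was present near the shank in all 3 rats at 24 h, at 115 CPM in rat 29, 82.8 in rat 25 and 7.76 in rat 30. Far tissue of these rats measured 0.0676 CPM (1 count), 52.5 and 13.3 CPM. In 2 of 3 rats the near value was the higher. The value of rat 29 rested on its right hemisphere library, one of the 4 with few genes, at 268 CPM; its left hemisphere library measured 12.7 CPM.

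At 1 week Col3a1 near the shank measured 976 CPM in rat 22, 84.7 in rat 9, 66.1 in rat 23, 0.297 in rat 20 and 0 in rat 10. Far tissue measured 55.9, 0, 85.3, 0 and 7.51 CPM in the same order. The level of rat 22 was the highest of the 30 sums of a rat and distance, with the next at 182 CPM in near tissue of rat 17 at 6 weeks. The near mean of 225 ± 421 CPM (SD, n = 5) became 37.8 ± 44.1 (n = 4) without rat 22.

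At 6 weeks Col3a1 near the shank measured 182 CPM in rat 17, 92.6 in rat 19, 74.2 in rat 11 and 19.5 in rat 2, against 5.55, 6.66, 18.8 and 0 CPM far from it. Every near value lay above every far value, narrowly, as for 1.18% of genes, and near tissue was higher in each of the 4 rats. A higher near value in every rat was shown by 3.46% of genes at this time. Naive tissue measured 0, 6.75 and 1.64 CPM at 100 µm in rats n2, n3 and n5 and 0, 0 and 30.1 CPM at 500 µm.

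By mean, Col3a1 went from near 1 week (225 CPM) to near 6 weeks (92.0), near 24 h (68.6), far 1 week (29.7), far 24 h (21.95), naive 500 µm (10.0), far 6 weeks (7.76) and naive 100 µm (2.79). No neighbours in this order were separated in their values. Further apart, all near values at 6 weeks exceeded all naive values at 100 µm, as for 1.71% of genes. All near values at 24 h exceeded them as well, narrowly (7.76 against 6.75 CPM), as for 3.6% of genes.

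Fn1 near the shank at 24 h measured 850 CPM in rat 25, 81.3 in rat 30 and 57.4 in rat 29, against 67.4, 39.9 and 30.2 CPM far from it. Near tissue was higher in 3 of 3 rats, which 9.13% of genes shared at this time. Rat 25 set the mean: 329 ± 451 CPM (SD, n = 3) with it and 69.3 ± 16.9 (n = 2) without it. Within rat 29 the right near library, with few genes, had 0 counts of Fn1 and the left 95.8 CPM.

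At 1 week Fn1 near the shank measured 336 CPM in rat 9, 288 in rat 22, 113 in rat 23, 85.6 in rat 20 and 6.81 in rat 10. Far tissue measured 47.2, 179, 54.0, 9.99 and 54.0 CPM in the same order. Rat 10 was the 1 implanted rat of 12 with the higher level in far tissue. The means were 166 ± 140 near and 68.8 ± 64.2 far (SD, n = 5), and the far mean without rat 22 was 41.3 ± 21.1 (n = 4).

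At 6 weeks Fn1 near the shank measured 89.8 CPM in rat 17, 84.6 in rat 19, 42.1 in rat 2 and 26.1 in rat 11, against 57.0, 65.4, 42.0 and 21.99 CPM far from it. All 4 rats had the higher level near the shank, by almost nothing in rat 2. The means were 60.6 ± 31.4 near and 46.6 ± 19.1 far (SD, n = 4). Naive rats n2, n3 and n5 measured 8.51, 20.7 and 23.3 CPM at 100 µm and 39.8, 21.95 and 74.4 CPM at 500 µm. The naive level at 100 µm was thus below that at 500 µm in 3 of 3 rats, as for 7.91% of genes. This direction was opposite to that of the 4 implanted rats at 6 weeks.

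By mean, Fn1 went from near 24 h (329 CPM) to near 1 week (166), far 1 week (68.8), near 6 weeks (60.6), far 6 weeks (46.6), far 24 h (45.8), naive 500 µm (45.4) and naive 100 µm (17.5). The values of neighbouring groups overlapped at each step. Far tissue differed little in mean from naive 500 µm tissue at 24 h and 6 weeks.

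Sparc near the shank at 24 h measured 291 CPM in rat 25, 91.4 in rat 29 and 72.8 in rat 30, against 105, 30.3 and 108 CPM far from it. Near tissue was higher in 2 of 3 rats. The near mean of 152 ± 121 CPM (SD, n = 3) was 82.1 ± 13.1 (n = 2) without rat 25.

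At 1 week Sparc near the shank measured 344 CPM in rat 9, 266 in rat 23, 245 in rat 22, 131 in rat 10 and 93.9 in rat 20. Far tissue measured 175, 203, 192, 153 and 182 CPM in the same order. Near tissue was higher in 3 of 5 rats, and the near values spread widely around a narrow band of far values. The means were 216 ± 102 near and 181 ± 18.6 far (SD, n = 5).

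At 6 weeks Sparc near the shank measured 187 CPM in rat 17, 161 in rat 2, 143 in rat 11 and 131 in rat 19, against 88.9, 74.0, 95.2 and 86.1 CPM far from it. In 4 of 4 rats the near value was the higher, and no near value overlapped a far value, a separation shown by 1.18% of genes. The means were 155 ± 24.2 near and 86.0 ± 8.90 far (SD, n = 4). Naive rats n2, n3 and n5 measured 60.8, 76.5 and 95.1 CPM at 100 µm and 76.9, 92.5 and 130.5 CPM at 500 µm. They were lower at 100 µm in 3 of 3 rats, as for 7.91% of genes.

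By mean, Sparc went from near 1 week (216 CPM) to far 1 week (181), near 6 weeks (155), near 24 h (152), naive 500 µm (99.98), far 6 weeks (86.0), far 24 h (81.2) and naive 100 µm (77.4). Neighbours in this order overlapped. All 4 near values at 6 weeks lay above every naive value, the closest being 131 against 130.5 CPM, a separation shown by 0.831% of genes.

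Tested at each time separately with edgeR, no member passed the threshold for near against far tissue. DESeq2 called Fn1 at 24 h (2.17, adjusted p = 0.04872), as 1 of 529 genes called of 14119. At 24 h, where edgeR called 0.132% of genes, Fn1 had the smallest adjusted p of the 5 by edgeR (log2 fold change 1.99 ± 0.65, adjusted p = 0.4033). Sparc and Col1a1 had fold changes of 1.01 ± 0.53 and 2.38 ± 2.47, Col3a1 of 1.56 ± 3.11 and Col1a2 of -1.57 ± 3.51, each with an adjusted p of 1. At 1 week, where 0.396% were called, the fold changes ran from 0.17 ± 0.39 for Sparc to 2.39 ± 3.29 for Col1a2, with 1.21 ± 0.54 for Fn1 (adjusted p = 0.6671), 1.47 ± 1.03 for Col1a1 and 2.26 ± 3.36 for Col3a1. The median gene stood at -0.66 at that time, and at -0.23 without rat 20, whose only near library had few genes. Without all 4 few-gene libraries the number of genes called went from 57 to 28 at 1 week, from 19 to 39 at 24 h and from 11 to 41 at 6 weeks.

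At 6 weeks, where 0.0764% of genes were called, the collagens had their largest near against far fold changes: 4.59 ± 2.54 for Col3a1, 4.29 ± 3.18 for Col1a2 and 3.09 ± 1.58 for Col1a1. Sparc stood at 1.10 ± 0.43 and Fn1 at 0.58 ± 0.52, all with an adjusted p of 1. The fold change of Col3a1 stayed within 3.76 to 5.46 over 20 alternative fits, while its adjusted p ranged from 2.847e-09 to 1 and passed the threshold in 6 of them. Without the libraries of few genes, none of which is from 6 weeks, the same contrast gave 4.56 ± 0.69 with an adjusted p of 4.93e-08. For the average of the 3 times, leaving out these libraries gave adjusted p-values of 7.451e-06 for Col3a1, 0.03788 for Col1a1 and 0.02574 for Fn1, so that 3 members were called in place of 1. Over all genes that fit called 212 of 14301, 88 of them higher near the shank, against 217 of 14399 with every library.

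**Figure D3:**
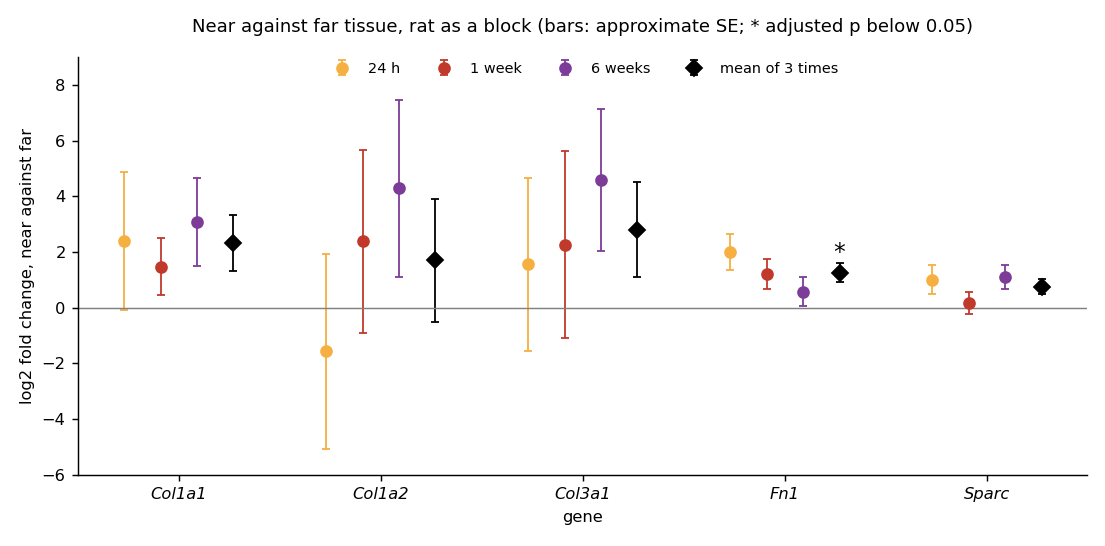
Fitted log2 fold change of near against far tissue (vertical axis) for each gene (horizontal axis) at 24 h, 1 week, 6 weeks and for the mean of the 3 times, with bars of 1 approximate SE; the asterisk marks an adjusted p below 0.05. Fn1 averaged over times, at 1.26, carries the single asterisk, and the bars of each collagen are wider than those of Fn1 and Sparc at the same time.

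The p-values measure the spread between these rats, and the call for Fn1 depended on which rats were included. The averaged log2 fold change of Fn1 stayed between 1.03 and 1.49 with any 1 rat left out, and the adjusted p ranged from 0.004354 to 0.5765. The call was lost without rat 2, 9, 11, 22 or 25. Fitted as separate libraries, with libraries in place of rats as units, the fold change was 1.26 with an adjusted p of 0.2162.

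Whether the near against far difference itself changed between times was tested for each pair of times, and no member passed. The share of genes called was 0% for 1 week against 24 h, 0.0278% for 6 weeks against 1 week and 0.0208% for 6 weeks against 24 h. With 0 genes called in the first of these tests, 258 of 14399 had an unadjusted p below 0.05, and no member was among them by edgeR. DESeq2 called 417 genes in that test, and no member in any of the tests. For Fn1 the difference at 6 weeks minus that at 24 h was -1.41 ± 0.82 (adjusted p = 1). For Sparc the difference at 6 weeks minus that at 1 week was 0.93 ± 0.58 (adjusted p = 1).

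Levels near the shank were also compared directly between times, and no member was called (0.0469% of genes called for 1 week against 24 h, 0.00781% for 6 weeks against 1 week and 0.0234% for 6 weeks against 24 h). Fn1 had log2 fold changes of -0.76 ± 1.09, -1.39 ± 1.06 and -2.15 ± 1.17 in these comparisons. The first became 0.84 without rat 25. The collagens had positive fold changes for 1 week against 24 h, from 1.62 ± 2.25 for Col3a1 to 6.07 ± 3.81 for Col1a2, and that of Col3a1 was -1.32 without rat 22.

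In far tissue the one member with separated groups was Sparc. All 5 far values at 1 week, from 153 to 203 CPM, lay above all 3 values at 24 h, the highest of which was 108, and above all 4 values at 6 weeks, the highest of which was 95.2. Such a separation was shown by 0.97% of the 12995 genes in the first comparison and by 0.585% in the second. The log2 fold changes were 1.11 ± 0.36 for 1 week against 24 h (edgeR adjusted p = 1) and -1.13 ± 0.32 for 6 weeks against 1 week (adjusted p = 0.8996). edgeR called 0% of genes between far tissue of any pair of times, with 546 genes at an unadjusted p below 0.05 in the first comparison and 661 in the second, Sparc among both, and 533 for 6 weeks against 24 h, with no member among them. By the Wald test of DESeq2, Sparc passed in both, at 1.20 (adjusted p = 0.01761) and -1.17 (adjusted p = 0.01051). That test called 196 of 12634 genes in the first comparison and 129 of 12634 in the second. Leaving out the few-gene far library of rat 23 gave 1.27 ± 0.36 and -1.30 ± 0.33 by edgeR.

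Against naive tissue at the matching distance, near tissue had positive log2 fold changes for all 5 members at 1 week and at 6 weeks and for 4 of 5 at 24 h. By edgeR none was called. The Wald test of DESeq2 called Fn1 at 24 h (4.42, adjusted p = 0.0001473) and Fn1, Sparc and Col3a1 at 1 week (adjusted p = 0.000748, 0.01291 and 0.0173). It called 400 of 13176 genes at 24 h and 308 of 13176 at 1 week. The naive libraries lie in a separate table with their own numbering, so batch and implant cannot be told apart in these comparisons. By edgeR at 24 h, where it called 0.0578% of 13834 genes, Fn1 had a fold change of 4.13 ± 1.28 (adjusted p = 0.8112) and Sparc of 1.09 ± 0.53 (adjusted p = 0.8112). At 1 week, with 0.123% called by edgeR, Sparc had 1.60 ± 0.50 (adjusted p = 0.3007), Fn1 3.38 ± 1.19 (adjusted p = 0.4054) and Col3a1 6.70 ± 2.93 (adjusted p = 0.5069). At 6 weeks, with 0.0434% called, Sparc had 1.22 ± 0.51 and Fn1 2.03 ± 1.13, each with an adjusted p of 1.

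By separation of values, Fn1 at 24 h and at 6 weeks lay above every naive 100 µm value near the shank, with 57.4 and 26.1 CPM as the lowest implanted values and 23.3 CPM as the highest naive one. Every rat lay above every naive rat for 3.6% of genes at 24 h and 1.71% at 6 weeks. At 1 week rat 10, at 6.81 CPM, lay below all 3 naive rats. Far Fn1 at 24 h, with a lowest value of 30.2 CPM, also lay above every naive 100 µm value. Naive 500 µm values of Fn1, from 21.95 to 74.4 CPM, overlapped near values at 24 h and 6 weeks. Near Sparc at 6 weeks, with a lowest value of 131 CPM against a highest naive value of 95.1, was separated as well, as for the 1.71% above.

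Far tissue against naive 500 µm tissue gave no called member, with 0.00748%, 0.127% and 0.0598% of 13369 genes called at 24 h, 1 week and 6 weeks. Far Sparc at 1 week had a log2 fold change of 0.83 ± 0.37 (adjusted p = 0.4998), and all of its values lay above the naive 500 µm values, as for 2.42% of genes. Far Fn1 had fold changes of 0.02 ± 0.71 at 24 h and -0.04 ± 0.66 at 6 weeks. Between the 2 naive distances no member and 0% of 11839 genes were called by edgeR. At an unadjusted p below 0.05 by edgeR there were 600 genes and no member. The Wald test of DESeq2 called 1357 of 11839 genes between the naive distances, 1144 higher and 213 lower at 100 µm, and no member. Fn1 stood at -1.36 ± 1.09 and Sparc at -0.37 ± 0.50 between the naive distances.

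Rats with an implant in each hemisphere gave 12 pairs of libraries of the same rat and distance. Sparc was detected on both sides in 12 of 12 pairs, the larger CPM being 1.09 to 18.3 times the smaller with a median of 1.72. Fn1 was detected on both sides in 11 pairs, with ratios of 1.26 to 3.79 and a median of 2.56. Col3a1 was found on both sides in 9 pairs and on one side in 3, with ratios up to 21.0, and Col1a1 on both in 7, on one in 3 and on neither in 2, with ratios up to 11.6. Col1a2 was found on both sides in 2 pairs, on one in 5 and on neither in 5.

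Naive rats, which had no implant, gave 6 such pairs, and their hemispheres differed as well. Fn1 was detected on both sides in 5 of these pairs, with ratios of 2.47 to 37.9 and a median of 7.51, and Sparc in 6, with ratios of 1.77 to 7.73 and a median of 3.46. Col1a1 and Col3a1 were each found on one side in 3 naive pairs and on neither in 3.

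Rats 17 and 19 at 6 weeks had the following near values on each side. In rat 17 Col1a1 measured 71.4 CPM on the left and 385 on the right, Col1a2 0 and 75.3, and Col3a1 40.5 and 328. In rat 19 Col1a1 measured 8.25 CPM on the left and 95.2 on the right, Col1a2 0 and 44.4, and Col3a1 10.4 and 181. The 3 collagens were thus higher on the right in both rats, and Fn1 and Sparc were as well, at 128 and 241 CPM on the right of rat 17 against 53.2 and 134 on the left.

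**Figure D4:**
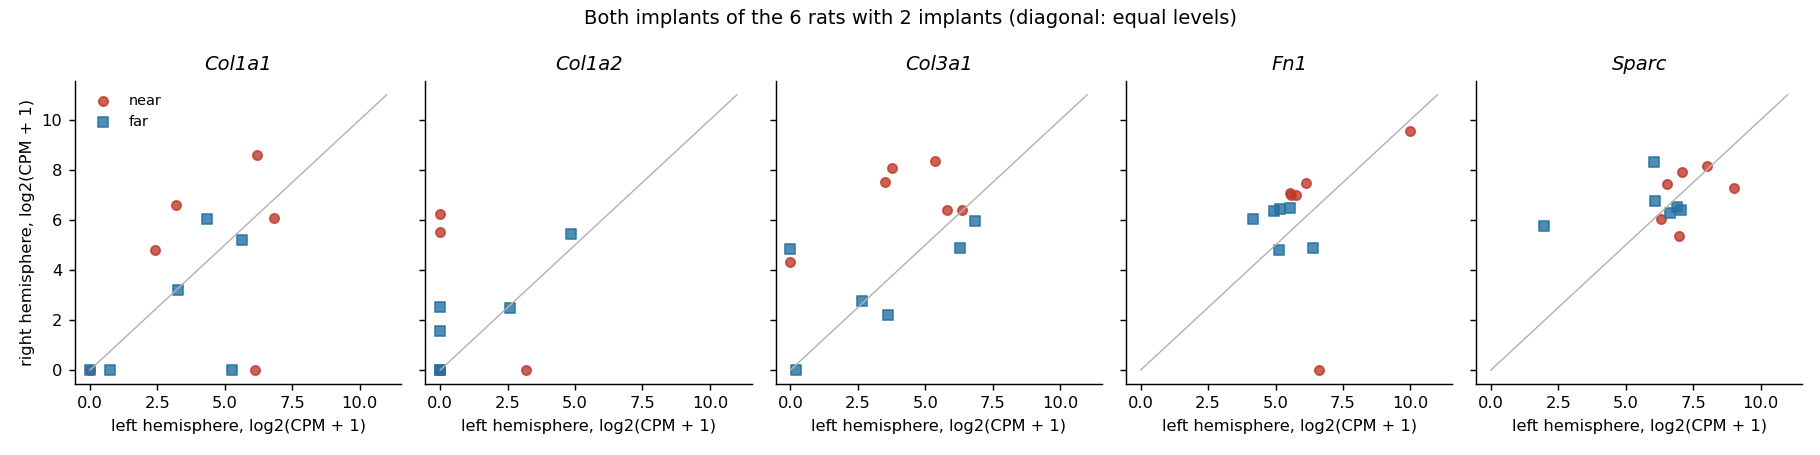
Level in the left (horizontal axis) against the right hemisphere (vertical axis), both as log2(CPM + 1), for the 6 rats with 2 implants; red circles are near and blue squares far libraries, and the diagonal marks equal levels. Points on an axis were detected on one side alone, as for Col1a2 in 5 of 12 pairs.

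Across the 24 near and far sums of the 12 implanted rats, the members' log2 CPM correlated with each other between 0.25 (Pearson's r, Col1a2 and Fn1) and 0.67 (Col3a1 and Fn1), with 0.62 for the pair of type I collagen chains. Near and far sums share a rat, and rats differ in depth, so these values are a description. Among 5932 other genes whose log2 CPM averaged 3 or more, the mean pattern of the 5 members was most closely matched by ENSRNOG00000018322 (r = 0.81) and ENSRNOG00000018454 (r = 0.80) over the same sums.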

How the data were processed

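Per the labels' protocols the library kit keeps strand, and the authors deposited counts per gene in 2 tables, one for implanted and one for naive rats. Per the submitters' processing notes, the tools were STAR 2.6.1b, RSEM 1.3.1, cutadapt 2.3, FastQC 0.11.8 and DESeq2 (roles not stated), with the genome Rnor_6.0. Rounding of the deposited counts is not stated; they are whole numbers and were used unchanged.

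The rule gives the 5 members by Ensembl ID, and all were named in every comparison. The members and lists were chosen with earlier results of these data known. None of the 18997 IDs matched the reference table (GRCr8), so 16 gene lists and the cell type markers were not analysed here. The 2 genes of most alike pattern were ranked by Pearson's r with the members' mean standardised log2 CPM.

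Counts of a rat were summed per distance. They were fitted in R 4.3.3 with edgeR 4.0.16, using filterByExpr, TMM factors, robust glmQLFit and the quasi-likelihood test. P-values were adjusted by Benjamini-Hochberg over all genes of a comparison, and calls were made at an adjusted p below 0.05. The approximate SE printed with a fold change is its size over the square root of F. For near against far tissue the model held a term for each rat (a block), from the rat number in the labels. As a check of this pairing, deviations from the group means were correlated between a rat's near and far sums (r from 0.00566 to 0.0882, above 0.1 in 0 of 12 rats). These values are low, so the check did not show the pairing, which rests on the labels alone. The averaged call of Fn1 was made with the block and lost without it. No library repeated another of its group (120 pairs, chi-square per degree of freedom at least 54.95). The scripts were checked on simulated data first.

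Alternatives were DESeq2 1.42.0 (Wald test), its size factors in edgeR, no low-count filter, no block, libraries not summed, the compared groups alone, naive distances summed, libraries of fewer than 6000 genes left out and each rat left out. Subtracting the naive difference between distances was added after seeing the data.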

Additional observations from a re-analysis of the deposited data

Results flagged for a closer look

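In near tissue at 1 week, rat 22 stood apart from the other 4 rats for each of the 3 collagens, at 481.8 CPM for Col1a1, 975.5 CPM for Col3a1 and 185.8 CPM for Col1a2. The highest of the other rats measured 57.7, 84.7 and 44.0 CPM for these genes. Far tissue of rat 22 at 1 week also stood apart for Fn1, at 178.8 CPM, with the next rat at 54.0. Far Col1a2 at 6 weeks was present in rat 19 alone, at 4.72 CPM. These are 5 of 20 sets of gene and group examined for a single distant rat by Dixon's criterion. Normally distributed values meet it in about 1 of 20 sets, a rate that need not hold for CPM with many values at 0. A set with 1 rat above 0, as far Col1a2 at 6 weeks, always meets it, and the 3 collagen sets of rat 22 share 1 library. The number of sets was therefore not compared with chance. Rat 22 gave 1 near and 1 far library, and neither had fewer than 6000 genes. What part the animal or its library had in these values was not tested.

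For 2 members every implanted rat of a time and every naive rat differed in opposite directions between the distances, and they are listed here for that pattern. The share of all genes with the joint pattern was not computed. Every rat was higher near for 9.13% of genes at 24 h and 3.46% at 6 weeks, and every naive rat was lower at 100 µm for 7.91%. The near minus far difference of Fn1 exceeded the naive difference between 100 µm and 500 µm by 3.325 on the log2 scale at 24 h and by 1.916 at 6 weeks, and that of Sparc by 1.451 at 6 weeks. As a test of the difference itself, each had an adjusted p of 1 by edgeR. Naive and implanted rats lie in separate tables, and batch and implant cannot be told apart here.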

How the results depend on the processing

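Over 1892 alternative values for single members and comparisons, 1762 kept both direction and side of the threshold, 89 changed sign without a call on either side, 32 became calls and 9 lost one, and 0 reversed a call. Setting by setting, with the number of members called of 5: the DESeq2 Wald test called 3 for the average near against far difference (Fn1, Col3a1 and Sparc), 1 at 24 h (Fn1, 2.17, adjusted p = 0.04872), 3 for near against naive tissue at 1 week, 1 at 24 h, and 1 each for far 1 week against 24 h and far 6 weeks against 1 week (Sparc). With no low-count filter, 1 was called on average (Col3a1, adjusted p = 0.0002161, in place of Fn1), 1 near against far at 6 weeks (Col3a1, adjusted p = 3.309e-05) and 1 each near against naive at 24 h and 1 week (Fn1). Over all genes, that setting called 30 of 17317 near against far at 6 weeks, against 11 of 14399 with the filter. Near against naive it called 27 of 15887 at 24 h and 40 at 1 week, against 8 and 17 of 13834. Without libraries of few genes 3 were called on average and 1 at 6 weeks. DESeq2 size factors gave 2 on average. The average gave 0 calls with libraries not summed, with no replicate block and with the naive difference subtracted. The cause of these changes was not tested.

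For Fn1 on average the log2 fold change was 1.26 with libraries not summed (adjusted p = 0.2162), 1.26 with no low-count filter (0.12), 1.54 with no replicate block (0.2474) and 2.59 with the naive difference subtracted (0.9964). It was positive in 19 of 19 alternatives and called in 10. The replicate block changed no other call. With 1 rat left out at a time, the number of members called ran from 0 to 3 on average, and from 0 to 1 near against far at 1 week and 6 weeks and near against naive at 24 h and 1 week. Fn1 on average ran from 1.03 to 1.49 over these fits. Single rats that made a call when left out were rat 10, 11, 2 or 20 for Col3a1 on average and at 6 weeks, rat 10 for Col3a1 at 1 week (4.33, adjusted p = 0.01315), rat 20 (0.04812) or rat 30 (0.008501) for Col1a1 on average and rat 30 for Sparc on average (1.00, adjusted p = 0.03215). Against naive tissue these were rat n5 for Fn1 at 24 h (adjusted p = 0.02784), rat 25 for Fn1 at 1 week (0.001265) and rat 20 for Sparc at 1 week (0.04168). Over all genes these 3 fits called 8, 48 and 31. On average 155, 119, 120, 241 and 242 genes were called without rat 10, 11, 2, 20 and 30. At 6 weeks 32, 23, 24 and 39 were called without rat 10, 11, 2 and 20, and at 1 week 19 without rat 10. Subtracting the naive difference turned the average of Col1a1 to -2.66 and of Col1a2 to -0.56, neither called, with the median gene at -1.19; both naive terms rest on rats at 0.

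The number of genes called on average was 217, against 212 with libraries of few genes left out, 154 with DESeq2 size factors, 1172 by DESeq2, 138 with no low-count filter, 91 with no replicate block, 83 with libraries not summed and 13 with the naive difference subtracted. At 24 h it was 19, against 529 by DESeq2, at 1 week 57 against 1304, and at 6 weeks 11 against 330. Col1a2 had 0 counts in 32 of 48 libraries, which allows up to 0.234 to 0.892 CPM depending on the library; whether depth set these zeros was not tested. Some alternatives gave no value for a collagen gene, and these were left out of the counts above. Leaving out few-gene libraries was not run for the naive distances, where no library had so few genes.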
